A study of Homo sapiens with 9 samples.

Results

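The genes described here are the cytosolic and mitochondrial chaperones and their partners, measured as transcripts in a human cell line with and without overexpression of the transcription factor NFE2L1. Members were chosen by symbol: the HSP70 and HSP110 proteins (HSPA, HSPH1), HSP90AA1, HSP90AB1 and TRAP1, the J-domain proteins (DNAJA, DNAJB, DNAJC), the CCT ring subunits, HSPD1 and HSPE1, the small heat shock proteins (HSPB), the BAG proteins, STIP1, and the heat shock factors HSF1 and HSF2. The chaperones HSPA5, DNAJB9, DNAJB11 and DNAJC3 of the endoplasmic reticulum were kept out. The choice by symbol still left 10 members with an endoplasmic reticulum or membrane location, such as HSPA13 and DNAJC10. Of 85 genes matched by name, 72 reached an abundance of at least 1 TPM, a unit scaled for transcript length and library, in 3 or more of the 9 libraries, among 14118 genes of 58174 that did so. The 13 others were DNAJB3, DNAJB7, DNAJB8, DNAJB13, DNAJC27, DNAJC28, HSPA6, HSPA7, HSPA12B, HSPB2, HSPB3, HSPB6 and HSPB9, and the highest value any of them had in any library was 1.04 TPM, for DNAJC27. The heat-inducible HSPA6 peaked at 0.575 TPM. Of the 72, 68 reached 1 TPM in all 9 libraries, and HSPA2, HSPA1L, DNAJC13 and DNAJB14 did so in 6, 7, 7 and 8.

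RNA was sequenced from 3 lines labelled HepG2, a line derived from a human liver tumour, with 3 libraries each. The control has the genotype label WT, and the protocol names its cells HepG2-pLVX, pLVX being a lentiviral vector. The other lines are labelled NFE2L1 overexpression and NFE2L1DC overexpression. The protocol writes the latter with a delta sign, the usual mark of a deletion. The sources used here do not give what was deleted, the promoter driving either transgene, or whether a line is a clone or a pool. All cells grew in high-glucose DMEM with serum, and no proteotoxic treatment is named. By its title the study looked for activity of NFE2L1 beyond transcription through transcriptome sequencing, and here each overexpressing line was compared with control and the 2 lines with each other. Both comparisons against control use the same 3 control libraries. Whether libraries of a group came from separate cultures is not in the labels; the p-values then cover the spread among these 9 libraries alone, which may be technical. In bulk RNA a change in the share of cells that express a gene and a change in RNA per cell cannot be told apart.

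Chaperones bind unfolded or partly folded proteins and use cycles of ATP binding to release them for folding. HSP70 proteins take clients from J-domain proteins, and nucleotide exchange factors of the HSP110 and BAG families reset them. STIP1 passes clients from HSP70 to HSP90, the CCT ring folds actin and tubulin, and HSPA9, HSPD1, HSPE1 and TRAP1 work in the mitochondrial matrix. Heat shock factor 1 (HSF1) induces many of these genes in stressed cells. NFE2L1 is a bZIP factor held in the endoplasmic reticulum membrane and best known for raising proteasome genes when the proteasome is inhibited.

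The row of NFE2L1 itself followed the labels, with 104, 81.7 and 64.0 TPM in control libraries 1 to 3, 207, 181 and 354 TPM in the NFE2L1 libraries and 445, 427 and 472 TPM in the NFE2L1DC libraries, in the order of the replicate numbers used throughout. The liver identity of the line was not visible: of 9 hepatocyte markers none reached 1 TPM in any library, their sum was at most 0.271 TPM, and albumin (ALB) was listed at 0 in all 9. Of 5 fibroblast markers, 4, 4 and 3 reached 1 TPM in the control, NFE2L1 and NFE2L1DC groups. Their sum ran from 127 to 148 TPM in control, from 91.8 to 106 TPM with NFE2L1 and from 85.8 to 102 TPM with NFE2L1DC. Of 4 leukocyte markers only CD68, also a lysosomal gene of many cells, reached 1 TPM, and its sum with the others was 22.1 to 23.0, 33.8 to 41.6 and 24.5 to 26.4 TPM. No endothelial marker of 4 reached 1 TPM, with sums of 0.138 to 0.165, 0.191 to 0.671 and 0.182 to 0.287 TPM. The part of these markers in the chaperone results was not tested. Depth is unknown, since the table holds TPM and no counts.

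Control replicate 3 stood apart from the other controls, and this bears on most members. It was above both other controls in 43 of the 72 members, against 56.6% of all genes tested, and at least 1.5 times their mean in 30 members, against 31.2% of all genes. Its ratio to their mean had a median of 1.27 over the members. The deviation followed base composition: across the 72 members, the Spearman correlation between the log2 deviation of control 3 and the GC content of the gene's transcripts was -0.80, and across 14085 genes it was -0.62, in both cases a description over genes of the same libraries. AT-rich members such as HSPH1 and HSPA4 were high in control 3, and GC-rich members such as HSPB1 and HSPA1A were low. The fold changes of the members followed GC content too, with a correlation of -0.63 for NFE2L1 against control, -0.73 without control 3 and 0.16 against control 3 alone. For NFE2L1DC the same values were -0.54, -0.72 and 0.37. Between the overexpressing lines, where no control enters the difference, the correlation was -0.44. With GC content and length corrected for, it was -0.35 with NFE2L1, -0.29 with NFE2L1DC and -0.25 between the lines. Neither leaving out control 3 nor the correction removed the relation to GC content. The counts of called members below are also given without control 3. With control 3 as the only control, HSPB7 with NFE2L1 was the only member called in either comparison against control.

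**Figure D1:**
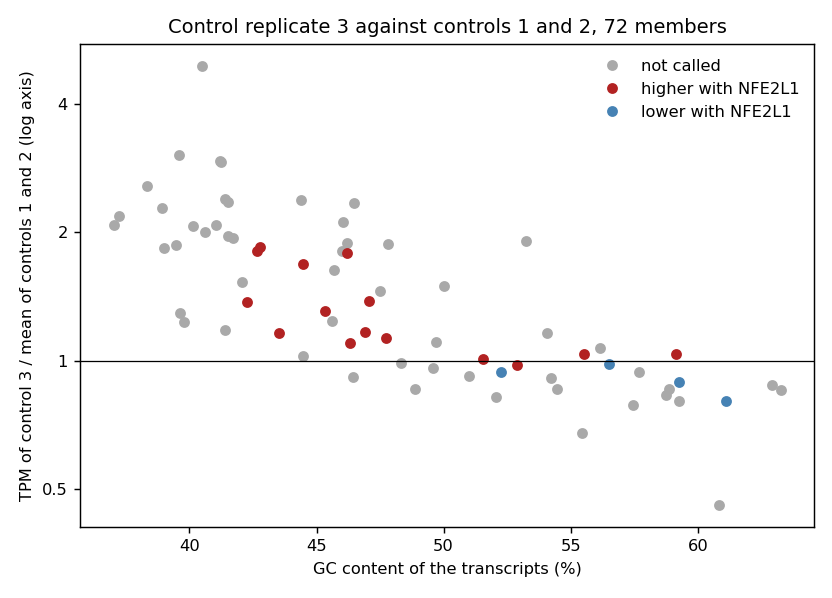
TPM of control replicate 3 divided by the mean of controls 1 and 2 (log axis) against the GC content of each gene's transcripts in percent, 1 point for each of the 72 members, coloured by its call for NFE2L1 against control. The points fall from left to right (Spearman -0.80), and the 15 members higher with NFE2L1 lie between 42.3% and 59.1% GC.

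With NFE2L1, 15 of the 72 members rose against control and 4 fell. The 15 were HSPA8, HSP90AB1, STIP1, DNAJA1, DNAJA2, DNAJA3, DNAJB1, DNAJC7, DNAJC12, BAG3, TCP1, CCT2, CCT4, CCT5 and HSPE1, and the 4 were HSPB7, BAG1, DNAJB2 and DNAJB5. The test was limma on log2(TPM + 1) over all 14118 genes, with calls at an adjusted p under 0.05. The 19 calls are 26.4% of the members, against 10.4% of all genes. The 15 higher calls are 20.8%, against 7.83% of all genes, and the 4 lower calls 5.56%, against 2.57%. The members' median log2 fold change was 0.34, against 0.17 over all genes, and 56 of 72 were positive. An unadjusted p under 0.05 was reached by 36 members, against 30.4% of all genes. NFE2L1 and control libraries did not overlap for 27 members that were higher (22.6% of all genes) and 5 that were lower (9.53% of all genes). Summed over members, control libraries held 10653, 10906 and 12005 TPM, NFE2L1 libraries 13741, 13845 and 13623 TPM, and NFE2L1DC libraries 14225, 12921 and 13556 TPM. The sum was thus lower in every control library than in any other. The share of TPM on mitochondrially encoded genes also set control apart, at 18.3% to 18.9%. It was 15.3% to 17.7% with NFE2L1 and 17.0% to 17.7% with NFE2L1DC, which overlap. The part of this share in the member sums and fold changes was not tested.

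The size of that count rested on single libraries. Without control 3 it was 38 higher and 5 lower, where 30.1% and 5.69% of all genes were called, and with control 3 as the only control, an alternative added after the data were seen, it was 0 higher and 1 lower (HSPB7), where 1.64% and 0.538% of all genes were called. Without control 1 or control 2 it was 4 and 3 calls in all, and without NFE2L1 library 1, 2 or 3 it was 3, 5 and 5. Shares over all genes were not counted with these libraries left out. A loss of calls in the members thus cannot be told apart there from a loss over all genes. All 15 higher members had their lowest NFE2L1 library above control 3. They were called on these same libraries, so that separation is no independent support for the calls. Control 3 was above both other controls in 12 of the 15, and in 56.6% of all genes tested. Scaling the libraries by median ratios moved the median of all genes from 0.17 to 0.02, and then 5 members were higher (HSPA8, DNAJA1, DNAJA2, DNAJC7 and DNAJC12; 3.9% of all genes) and the same 4 lower (4.07%), with the members' median at 0.17. With GC content and length corrected for, 23 members rose (10.9% of all genes) and 3 fell (1.99%).

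With NFE2L1DC, 4 members were called against control: HSPA1A and STIP1 rose, and HSPB7 and BAG1 fell. They are 5.56% of the members, against 3.61% of all genes (2.06% higher, 1.54% lower). The median log2 fold change was 0.28, against 0.12 over all genes, with 57 of 72 positive. At an unadjusted p under 0.05 there were 31 members, against 21.7% of all genes. Libraries did not overlap for 14 members higher (13.7% of all genes) and 4 lower (8.98%). The count was 34 higher and 3 lower without control 3 (20.1% and 4.34% of all genes), and none was called against control 3 alone (0.333% higher and 0.149% lower among all genes), where 39 of 72 were positive. It was 1 and 0 calls in all without control 1 and 2, and 0, 4 and 0 without NFE2L1DC library 1, 2 and 3. Without NFE2L1 library 1, 2 and 3, which enter the shared estimate of spread, it was 1, 3 and 0. Shares over all genes were not counted with these libraries left out. The calls of STIP1, BAG1, HSPA1A and HSPB7 held in 8, 6, 6 and 5 of 18 alternatives. No member was called under median-ratio scaling, where 2.61% of all genes were, the members' median was 0.17 and that of all genes 0.02. With the same correction for GC and length 6 members rose (3.79% of all genes) and 2 fell (1.38%).

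**Figure D2:**
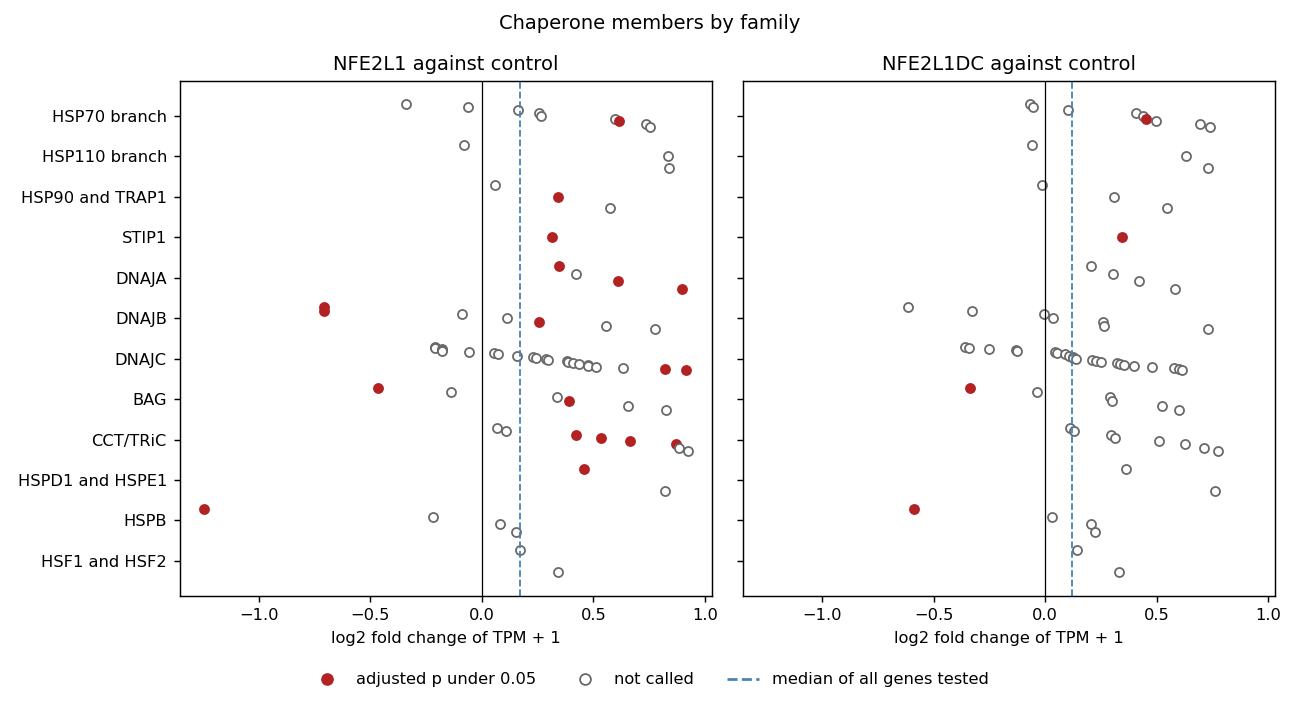
Log2 fold change of TPM + 1 for each of the 72 members by family, for NFE2L1 against control (left) and NFE2L1DC against control (right). Filled points passed the limma test at an adjusted p under 0.05, open points did not, and the dashed line is the median of all genes tested (0.17 and 0.12).

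**Figure D3:**
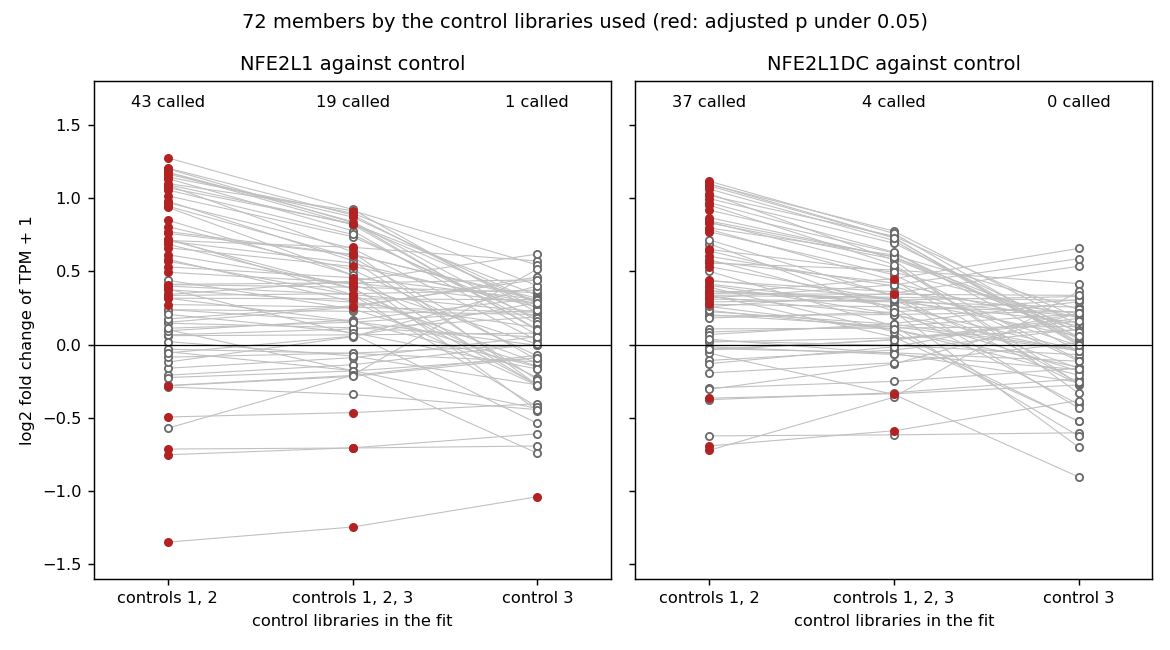
Log2 fold changes of the 72 members against controls 1 and 2, against all 3 controls and against control 3 alone, with 1 line per member and red points for calls. For NFE2L1 the calls go from 43 to 19 to 1, and for NFE2L1DC from 37 to 4 to 0.

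The heat shock factors did not pass the test in either line. HSF1, the main activator of heat shock genes, stood at 75.0, 81.5 and 66.8 TPM in control, 88.6, 70.8 and 92.8 TPM with NFE2L1 and 76.7, 88.8 and 81.0 TPM with NFE2L1DC, and all 3 groups overlapped. Its log2 fold changes were 0.17 (SE 0.12, adjusted p = 0.362, limma) and 0.14 (SE 0.12, adjusted p = 0.508). HSF2, a related factor, was near the low end of the members at 1.83, 1.63 and 5.06 TPM in control, 3.79, 3.23 and 3.51 TPM with NFE2L1 and 5.18, 3.18 and 2.49 TPM with NFE2L1DC. Control 3 exceeded every NFE2L1 library here, and without it HSF2 was called higher with NFE2L1.

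In the HSP70 branch 1 of 9 members rose with NFE2L1, HSPA8, and 1 with NFE2L1DC, HSPA1A, where 7.83% and 2.06% of all genes were higher. That count depended on control 3: without it 4 rose with NFE2L1 (HSPA8, HSPA9, HSPA13 and HSPA14; 30.1% of all genes) and 6 with NFE2L1DC (these 4, HSPA1A and HSPA1B; 20.1%). After GC and length correction HSPA8, HSPA1A and HSPA1B were called in both lines and HSPA9 with NFE2L1. In that setting 10.9% of all genes rose with NFE2L1 and 3.79% with NFE2L1DC. HSPA8 (ENSG00000109971, chr11:123057489-123063230 on the minus strand of GRCh38), the constitutive cytosolic HSP70 that also strips clathrin from vesicles, stood at 1248, 1385 and 1819 TPM in control, 2214, 2287 and 2236 TPM with NFE2L1 and 2200, 1883 and 2123 TPM with NFE2L1DC. Every library of either overexpressing line lay above every control, although control 3 came close to NFE2L1DC library 2. With NFE2L1 its log2 fold change was 0.62 (SE 0.12, adjusted p = 0.0166, limma), or 1.51 times the control mean, and with NFE2L1DC 0.49 (SE 0.12, adjusted p = 0.0619). HSPA8 made up 11.7% to 15.2% of the members' TPM in control, 16.1% to 16.5% with NFE2L1 and 14.6% to 15.7% with NFE2L1DC.

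HSPA1A and HSPA1B encode the stress-inducible HSP70 from near-identical neighbouring genes, so the split of reads between them is uncertain: their ratio stayed between 1.01 and 1.07 in all 9 libraries. HSPA1A (chr6:31815464-31817946, plus strand) stood at 270, 250 and 209 TPM in control, 306, 297 and 266 TPM with NFE2L1 and 350, 317 and 325 TPM with NFE2L1DC. The NFE2L1DC libraries were above all others, while NFE2L1 library 3 fell below control 1. The log2 fold change was 0.45 with NFE2L1DC (SE 0.10, adjusted p = 0.045, limma) and 0.26 with NFE2L1 (SE 0.10, adjusted p = 0.127). HSPA1B (chr6:31827735-31830255, plus strand) had 262, 239 and 208 TPM in control, 301, 285 and 263 TPM with NFE2L1 and 332, 302 and 303 TPM with NFE2L1DC, with log2 fold changes of 0.26 (adjusted p = 0.103) and 0.41 (adjusted p = 0.0517). Control 3 was the lowest library for both genes, the reverse of its place for HSPA8. The ratio of HSPA8 to HSPA1A therefore ran from 4.62 to 8.69 within the controls alone.

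HSPA9, the HSP70 of the mitochondrial matrix, belongs to the same branch. It had 135, 133 and 253 TPM in control, 287, 277 and 274 TPM with NFE2L1 and 316, 244 and 250 TPM with NFE2L1DC. Controls 1 and 2 were far below all other libraries and control 3 was not, and neither comparison passed (log2 fold change 0.75, adjusted p = 0.0598 with NFE2L1; 0.69, adjusted p = 0.117 with NFE2L1DC, limma). HSPA13, HSPA14, HSPA12A, HSPA2 and HSPA1L were low, between 0.841 and 25.7 TPM in any library, and none was called with all 3 controls.

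Promoters of 64 of the 72 members were found in RefSeq (GRCh38.p14), each from 250 bases before the start to 50 after; BAG4, CCT6A, DNAJC1, DNAJC22, DNAJC24, HSF1, HSPA14 and HSPB11 were not. The heat shock element that HSF1 binds was searched on both strands as GAANNTTC followed by NNGAA and lay in 3 of 64 member promoters (4.69%), those of HSPA8, DNAJA1 and DNAJB6, and in 0.487% of 27305 promoters of the same length. Its first part alone, GAANNTTC, which overlaps every such element, lay in 10 of 64 (15.6%) and in 6.87% of all. The 2 elements before the HSPA8 start and the shorter matches of the HSPA1A and HSPA1B pair are shown in capitals because these members carry the HSP70 result; the strand shown is that of the gene, and the later HSPA8 element reads on the opposite strand. The HSPA8 windows are chr11:123062346-123062374 and chr11:123062171-123062199, and the HSPA1A and HSPA1B windows chr6:31815412-31815469 and chr6:31827608-31827665. In DNAJA1 the element GAACTTTCCAGAA covered bases 3 to 15 counted from 0 at the start. A match of letters is not evidence of binding.
HSPA8 element 1: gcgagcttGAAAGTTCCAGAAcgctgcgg
HSPA8 element 2: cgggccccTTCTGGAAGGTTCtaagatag
HSPA1A: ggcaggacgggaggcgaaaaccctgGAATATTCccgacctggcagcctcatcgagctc
HSPA1B: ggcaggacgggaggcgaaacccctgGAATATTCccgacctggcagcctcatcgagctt

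None of the 3 HSP110 proteins, which reset HSP70, was called on the TPM as deposited with all 3 controls, and HSPH1 and HSPA4 differed widely between controls. Both were called higher in both lines without control 3 (30.1% and 20.1% of all genes), and with NFE2L1 after GC and length correction (10.9%). HSPH1 had 8.46, 8.26 and 19.1 TPM in control, 19.9, 18.8 and 23.0 TPM with NFE2L1 and 21.1, 21.0 and 15.5 TPM with NFE2L1DC, so control 3 fell inside the range of both overexpressing groups. Its log2 fold changes were 0.83 (SE 0.28, adjusted p = 0.0857, limma) and 0.73 (SE 0.28, adjusted p = 0.173). HSPA4 had 17.9, 18.6 and 37.8 TPM in control, 42.1, 43.2 and 42.1 TPM with NFE2L1 and 41.5, 37.0 and 32.0 TPM with NFE2L1DC. Here every NFE2L1 library was above control 3, and the log2 fold change of 0.84 had an adjusted p of 0.0586 (limma). Without control 3 its log2 fold change with NFE2L1 was 1.18. HSPA4L stayed between 1.31 and 3.44 TPM in all libraries.

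HSP90AB1 and its partner STIP1 rose with NFE2L1, and STIP1 also with NFE2L1DC. HSP90AB1 (chr6:44246166-44253888, plus strand), the constitutive cytosolic HSP90 and the member with the highest mean, had 1988, 2022 and 2264 TPM in control, 2664, 2684 and 2587 TPM with NFE2L1 and 2751, 2363 and 2666 TPM with NFE2L1DC. No overexpressing library overlapped control. The log2 fold change was 0.34 with NFE2L1 (SE 0.07, adjusted p = 0.0218, limma) and 0.31 with NFE2L1DC (SE 0.07, adjusted p = 0.0537). The inducible HSP90AA1 was far lower and more scattered, at 60.6, 53.4 and 134 TPM in control, 99.7, 106 and 137 TPM with NFE2L1 and 150, 96.7 and 94.6 TPM with NFE2L1DC, and was not called (0.57, adjusted p = 0.255; 0.55, adjusted p = 0.349). Control 3 exceeded 2 of 3 libraries in each overexpressing line. Without control 3 HSP90AA1 and HSP90AB1 were called higher in both lines, where 30.1% and 20.1% of all genes were. TRAP1, the mitochondrial HSP90, had 440, 423 and 340 TPM in control, 389, 459 and 400 TPM with NFE2L1 and 388, 402 and 393 TPM with NFE2L1DC, with log2 fold changes of 0.06 and -0.02.

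STIP1 (ENSG00000168439, chr11:64185272-64204543, plus strand) was the only member called higher in both lines. It had 392, 402 and 400 TPM in control, 514, 477 and 493 TPM with NFE2L1 and 530, 469 and 519 TPM with NFE2L1DC, all above every control. Its log2 fold change was 0.31 (SE 0.06, adjusted p = 0.0191, limma) and 0.34 (SE 0.06, adjusted p = 0.026), or 1.24 and 1.27 times the control mean. Control 3 was 1.01 times the mean of the other controls, and against control 3 alone the log2 fold change with NFE2L1 was again 0.31 (adjusted p = 0.191). Under median-ratio scaling it was 0.13 with NFE2L1 (adjusted p = 0.399).

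**Figure D4:**
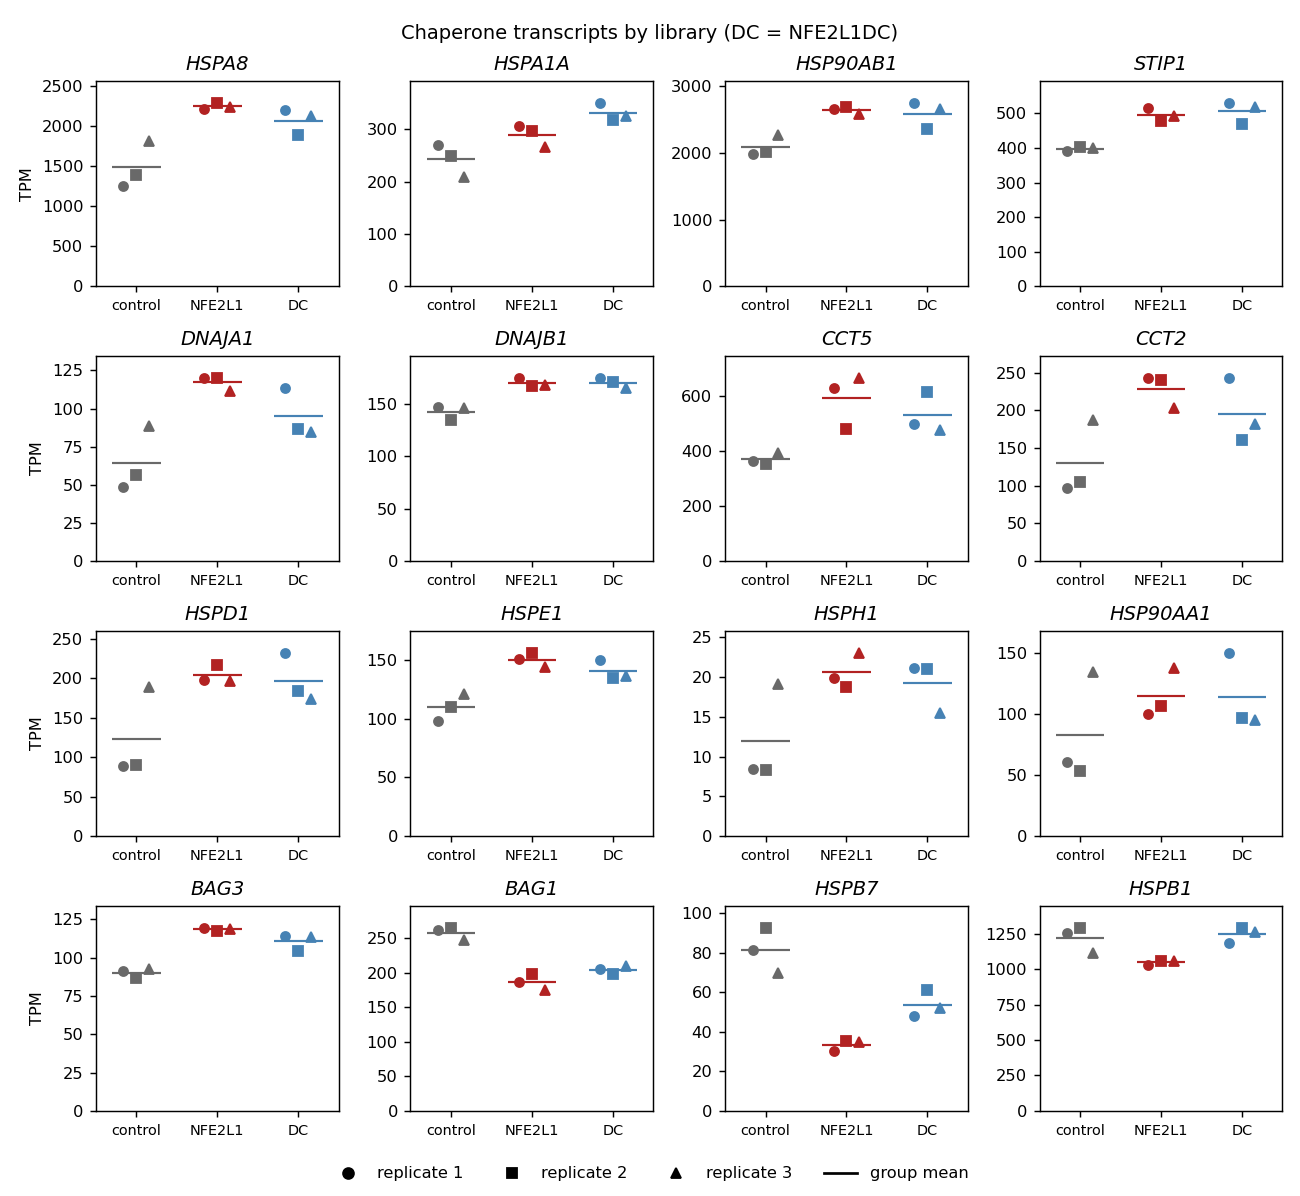
TPM of 16 members in each of the 9 libraries, with replicate numbers as symbols and group means as lines, and every axis from 0. Control 3 (triangle) lies near the overexpressing lines for HSPD1, HSPH1 and HSP90AA1 and near the other controls for STIP1, DNAJB1, CCT5 and BAG3.

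Type A J-domain proteins, general partners of HSP70, rose with NFE2L1 in 3 of 4 cases (7.83% of all genes did), and all 4 had positive fold changes in both lines. The same 3 rose with NFE2L1 without control 3 (30.1% of all genes), and DNAJA1 and DNAJA2 then rose with NFE2L1DC as well (20.1%). DNAJA1 had 48.7, 56.5 and 88.5 TPM in control, 120, 120 and 112 TPM with NFE2L1 and 113, 86.6 and 84.8 TPM with NFE2L1DC. The NFE2L1 libraries cleared every control, while NFE2L1DC libraries 2 and 3 were below control 3. Its log2 fold change with NFE2L1 was 0.90 (SE 0.20, adjusted p = 0.0246, limma), or 1.82 times the control mean. DNAJA2 had 31.9, 34.7 and 45.6 TPM in control, 58.3, 58.0 and 54.8 TPM with NFE2L1 and 56.5, 43.4 and 50.4 TPM with NFE2L1DC, and its log2 fold change with NFE2L1 was 0.61 (SE 0.14, adjusted p = 0.028). DNAJA1 and DNAJA2 also rose with NFE2L1 under median-ratio scaling, where 3.9% of all genes did. DNAJA3, which acts in mitochondria, had a log2 fold change of 0.35 (adjusted p = 0.043), and the low DNAJA4 was not called.

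Type B J-domain proteins went both ways: 1 of 7 rose with NFE2L1 and 2 fell (7.83% and 2.57% of all genes), and none was called with NFE2L1DC. Leaving out control 3 gave 3 that rose with NFE2L1 (DNAJB1, DNAJB4 and DNAJB14) with the same 2 lower (30.1% and 5.69% of all genes). With NFE2L1DC 2 then rose (DNAJB1 and DNAJB4), where 20.1% of all genes did. DNAJB1, a heat-inducible partner of HSPA1A that acts in disaggregation, had 147, 135 and 146 TPM in control, 175, 167 and 168 TPM with NFE2L1 and 174, 171 and 165 TPM with NFE2L1DC. All 6 overexpressing libraries were above all controls. Its log2 fold change was 0.26 in both lines (SE 0.07, adjusted p = 0.0402 with NFE2L1 and 0.0642 with NFE2L1DC, limma), and 0.08 with NFE2L1 under median-ratio scaling (adjusted p = 0.631). DNAJB2, best known from neurons, had 13.4, 18.3 and 14.1 TPM in control, 9.07, 10.4 and 7.39 TPM with NFE2L1 and 13.2, 12.0 and 10.4 TPM with NFE2L1DC. Neither overexpressing group overlapped control, and the log2 fold change with NFE2L1 was -0.71 (SE 0.17, adjusted p = 0.0304). After GC and length correction DNAJB2 was not called. DNAJB5 also fell with NFE2L1, by 0.71 on the log2 scale (adjusted p = 0.0421), from at most 3.81 TPM.

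The 23 type C proteins share little beyond the J domain, and 2 of them rose with NFE2L1 and none with NFE2L1DC, where 7.83% and 2.06% of all genes did. Without control 3, 10 rose with NFE2L1 (30.1% of all genes), and with NFE2L1DC 7 rose and DNAJC4 fell (20.1% and 4.34%). DNAJC7, which holds TPR repeats that bind HSP70 and HSP90, had 24.3, 24.9 and 43.9 TPM in control, 48.1, 59.0 and 54.1 TPM with NFE2L1 and 50.5, 48.0 and 39.3 TPM with NFE2L1DC. NFE2L1 libraries cleared control 3 and NFE2L1DC library 3 did not. The log2 fold change with NFE2L1 was 0.82 (SE 0.21, adjusted p = 0.0408, limma). DNAJC12, a partner of the aromatic amino acid hydroxylases, had a log2 fold change of 0.91 with NFE2L1 (adjusted p = 0.0445) from a control maximum of 2.47 TPM. Among subgroups of the type C and other members, none of 4 linked to the spliceosome or ribosome, none of 3 that act at clathrin coats or synapses, and none of 10 with an endoplasmic reticulum or membrane location was called with all 3 controls. These zeros rested on control 3. Without it DNAJC2, DNAJC8 and DNAJC21 of the first subgroup rose in both lines, and DNAJC6 and DNAJC13 of the second with NFE2L1. Of the third, DNAJC25 and HSPA13 rose in both lines and DNAJB14 with NFE2L1. In that setting 30.1% of all genes rose with NFE2L1 and 20.1% with NFE2L1DC. The third subgroup, with 3 and 2 of 10, was thus near the share over all genes. With all 3 controls the median log2 fold changes of the 3 subgroups with NFE2L1 were 0.40, 0.47 and 0.20, against 0.17 over all genes.

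For the CCT ring, 4 of 8 subunits rose with NFE2L1 (CCT2, CCT4, CCT5 and TCP1), where 7.83% of all genes did. All 8 had positive fold changes with a median of 0.60, against 0.17 over all genes. None was called with NFE2L1DC, where the median was 0.41, against 0.12. Without control 3 the same 6 subunits, these 4 with CCT6A and CCT8, rose in both lines (30.1% and 20.1% of all genes). Under median-ratio scaling none was called, and with NFE2L1 6 of 8 were positive. After GC and length correction 5 rose with NFE2L1 (CCT2, CCT5, CCT6A, CCT8 and TCP1), where 10.9% of all genes did. CCT4 was not called in that setting, and no subunit was called with NFE2L1DC. CCT5 (chr5:10249921-10266412, plus strand) had 363, 354 and 395 TPM in control, 629, 482 and 667 TPM with NFE2L1 and 500, 615 and 477 TPM with NFE2L1DC. The groups did not overlap control, and its controls were close together. The log2 fold change was 0.66 with NFE2L1 (SE 0.13, adjusted p = 0.0165, limma) and 0.51 with NFE2L1DC (SE 0.13, adjusted p = 0.0683). CCT2 had 97.3, 105 and 187 TPM in control, 243, 241 and 203 TPM with NFE2L1 and 243, 161 and 182 TPM with NFE2L1DC. For CCT2 NFE2L1DC libraries 2 and 3 were below control 3, and the log2 fold change with NFE2L1 was 0.87 (SE 0.24, adjusted p = 0.0484).

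TCP1, the subunit also called CCT1, had 104, 107 and 139 TPM in control, 187, 170 and 150 TPM with NFE2L1 and 149, 143 and 140 TPM with NFE2L1DC. The control maximum lay just under the NFE2L1DC minimum, and the log2 fold change with NFE2L1 was 0.53 (SE 0.12, adjusted p = 0.0256, limma). CCT4 had 216, 217 and 251 TPM in control, 303, 321 and 293 TPM with NFE2L1 and 307, 261 and 271 TPM with NFE2L1DC, and with NFE2L1 the log2 fold change was 0.42 (SE 0.09, adjusted p = 0.0191). CCT6A and CCT8 had the largest fold changes of the ring with NFE2L1, 0.92 and 0.88, and adjusted p of 0.0512 and 0.0505, while CCT3 and CCT7 had 0.07 and 0.11. The subunits, which assemble in equal numbers, were thus not at equal transcript levels: the ratio of the highest to the lowest TPM was 12.8, 14.2 and 7.43 in control, 5.83, 6.52 and 7.25 with NFE2L1 and 7.61, 7.24 and 8.55 with NFE2L1DC. Control 3 had the ratio of the overexpressing lines, and controls 1 and 2 did not.

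NFE2L1 and its relatives bind the antioxidant response element, whose core was searched on both strands as TGACNNNGC. It lay in 8 of 64 member promoters (12.5%) and in 13.6% of all 27305. The 8 were CCT4, DNAJA2, DNAJB6, DNAJC10, DNAJC11, HSP90AB1, HSPB1 and TRAP1, and 3 of these (CCT4, DNAJA2 and HSP90AB1) were among the members that rose with NFE2L1. The CCT4 window at chr2:61888790-61888848 and the HSP90AB1 window at chr6:44245947-44246005 are shown with that match in capitals, which reads on the strand opposite to the gene. The TCP1 window at chr6:159789801-159789852 shows the shorter heat shock match GAANNTTC in capitals, the only one in the promoters of the CCT ring that were found.
CCT4: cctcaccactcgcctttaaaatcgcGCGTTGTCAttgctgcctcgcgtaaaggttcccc
HSP90AB1: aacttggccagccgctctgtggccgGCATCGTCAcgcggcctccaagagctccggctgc
TCP1: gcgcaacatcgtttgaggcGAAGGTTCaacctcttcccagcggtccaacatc

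Of 10 mitochondrial members, 2 rose with NFE2L1 (HSPE1 and DNAJA3; 7.83% of all genes) and none was called with NFE2L1DC. Without control 3, HSPA9 and HSPD1 rose as well with NFE2L1 (30.1% of all genes), and with NFE2L1DC HSPA9, HSPD1 and HSPE1 rose and DNAJC4 fell (20.1% and 4.34%). After GC and length correction 5 rose with NFE2L1 (HSPE1, DNAJA3, DNAJC11, HSPA9 and TRAP1), where 10.9% of all genes did. HSPE1 then rose with NFE2L1DC, where 3.79% did. HSPE1, the lid of the matrix chaperonin, had 97.9, 110 and 121 TPM in control, 151, 156 and 144 TPM with NFE2L1 and 151, 135 and 137 TPM with NFE2L1DC. Both overexpressing groups lay above control, with log2 fold changes of 0.46 (SE 0.09, adjusted p = 0.0165, limma) and 0.36 (SE 0.09, adjusted p = 0.0633). HSPD1, the ring itself, had 88.7, 90.2 and 189 TPM in control, 197, 216 and 197 TPM with NFE2L1 and 232, 184 and 174 TPM with NFE2L1DC, and was not called (0.82, adjusted p = 0.0714; 0.76, adjusted p = 0.134). Control 3 was above NFE2L1DC libraries 2 and 3. The ratio of HSPD1 to HSPE1 was 0.906 and 0.818 in controls 1 and 2 and between 1.27 and 1.56 in the other 7 libraries. HSPD1 (chr2:197486581-197516737, minus strand) and HSPE1 (chr2:197499994-197503457, plus strand) overlap on opposite strands in GENCODE 29, and the sources used here do not give whether counting used strand, so reads of the overlap cannot be assigned for certain.

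BAG proteins, which release clients from HSP70, split. Of 6 members BAG3 rose and BAG1 fell with NFE2L1, where 7.83% and 2.57% of all genes did. With NFE2L1DC BAG1 alone was called, and it fell, as 1.54% of all genes did. BAG3 (chr10:119651370-119677819, plus strand), which links HSP70 and HSPB8 to selective autophagy, had 91.1, 86.9 and 92.4 TPM in control, 120, 118 and 118 TPM with NFE2L1 and 114, 104 and 114 TPM with NFE2L1DC. The 3 groups did not overlap, with NFE2L1 highest and control lowest, and control 3 was 1.04 times the mean of the other controls. The log2 fold change was 0.39 with NFE2L1 (SE 0.07, adjusted p = 0.00947, limma) and 0.29 with NFE2L1DC (SE 0.07, adjusted p = 0.0537), and the call with NFE2L1 held in 16 of 18 alternatives. The exceptions were median-ratio scaling (0.21, adjusted p = 0.176) and control 3 as the only control (0.36, adjusted p = 0.136). BAG1 (chr9:33247820-33264720, minus strand), which couples HSP70 to the proteasome, had 262, 265 and 248 TPM in control, 187, 198 and 175 TPM with NFE2L1 and 205, 198 and 210 TPM with NFE2L1DC. Every overexpressing library was below every control. Its log2 fold change was -0.46 (SE 0.07, adjusted p = 0.00417) and -0.34 (SE 0.07, adjusted p = 0.0347), and the call with NFE2L1 held in 17 of 18 alternatives, all but control 3 as the only control (-0.40, adjusted p = 0.101). The other 4 BAG genes were not called. Without control 3, BAG2, BAG4 and BAG5 rose with NFE2L1 as well (30.1% of all genes rose), and BAG2, BAG3 and BAG4 with NFE2L1DC (20.1%).

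Of 4 small heat shock proteins, HSPB7 fell in both lines, where 2.57% of all genes fell with NFE2L1 and 1.54% with NFE2L1DC. HSPB7 (ENSG00000173641, chr1:16014028-16019594, minus strand), best known from heart and skeletal muscle, had 81.5, 92.7 and 69.9 TPM in control, 30.4, 35.5 and 34.8 TPM with NFE2L1 and 47.8, 61.0 and 52.3 TPM with NFE2L1DC. The 3 groups did not overlap, with control highest and NFE2L1 lowest. The mean with NFE2L1 was 0.413 times control (log2 fold change -1.25, SE 0.13, adjusted p = 0.000612, limma), and with NFE2L1DC 0.66 times control (-0.59, SE 0.13, adjusted p = 0.0432). HSPB7 with NFE2L1 is the only 1 of the 19 calls that held in all 18 alternatives, where the fold change ran from -1.42 to -1.04. The call with NFE2L1DC held in 5 of 18. HSPB1, the most abundant of the family and an actin-binding, heat-inducible protein, had 1254, 1292 and 1113 TPM in control, 1028, 1058 and 1053 TPM with NFE2L1 and 1180, 1292 and 1263 TPM with NFE2L1DC. NFE2L1 libraries were below both other groups, but the log2 fold change of -0.22 was not called (SE 0.07, adjusted p = 0.0714). Listed copies of HSPB1 summed to 12.0 to 26.1 TPM, and reads may be split between them and the gene. HSPB8 and HSPB11 were not called. Without control 3, HSPB1 was called lower with NFE2L1 (5.69% of all genes) and HSPB11 higher with NFE2L1DC (20.1%).

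When the 2 overexpressing lines were compared directly, no member passed the limma test (0.793% of all genes did), and 3 of 72 had an unadjusted p under 0.05, against 8.19% of all genes. The median log2 difference, NFE2L1 minus NFE2L1DC, was 0.05, against 0.06 over all genes. Those 3 were all lower with NFE2L1: HSPB7 at -0.66 (95% interval -0.95 to -0.36, adjusted p = 0.0711), HSPB1 at -0.25 (-0.40 to -0.10, adjusted p = 0.246) and DNAJB2 at -0.38 (adjusted p = 0.608). HSPB7 was called without control 3, whose values enter only the estimate of spread here (adjusted p = 0.0354), and after correction for GC content and length (-0.61, adjusted p = 0.042). Libraries of the lines did not overlap for 6 members higher with NFE2L1 (12.4% of all genes) and 9 lower (5.55% of all genes). The 6 were BAG3, DNAJC6, DNAJC19, HSPA4, HSPA8 and TCP1, and the 9 were HSPB1, HSPB7, HSPB8, HSPB11, HSPA1A, HSPA1B, HSPA2, DNAJB2 and DNAJC5. A missed threshold does not show that the lines act alike: the median half-width of the 95% intervals was 0.39, the widest was 0.82, and the interval lay within 0.5 of 0 for 34 of 72 members. It ran from -0.16 to 0.40 for HSPA8, from -0.18 to 0.11 for STIP1, from -0.42 to 0.03 for HSPA1A and from -0.14 to 0.76 for DNAJA1.

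**Figure D5:**
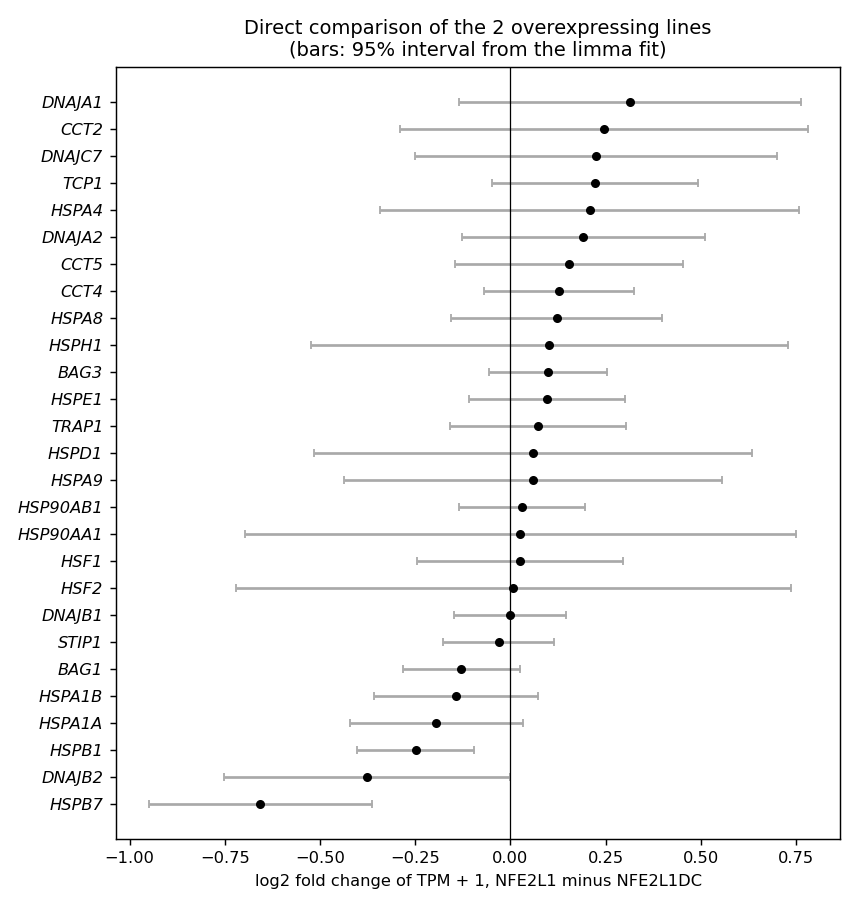
Log2 difference of TPM + 1, NFE2L1 minus NFE2L1DC, with 95% intervals from the limma fit for 27 named members. HSPB7 lies lowest at -0.66, and no member passed the test after adjustment.

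The heat-inducible members are a list drawn up for this work with earlier results of these data known. With NFE2L1 7 of 15 rose (BAG3, DNAJA1, DNAJB1, HSP90AB1, HSPA8, HSPE1 and STIP1), where 7.83% of all genes did. With NFE2L1DC 2 rose (HSPA1A and STIP1), where 2.06% did. HSPA8 and HSP90AB1, among the 7, are the constitutive forms named above. The 8 not called with NFE2L1 were HSP90AA1, HSPA1A, HSPA1B, HSPA4L, HSPB1, HSPB8, HSPD1 and HSPH1. None of the 15 fell in either line. The list's median log2 fold change was 0.34 and 0.36, against 0.17 and 0.12 over all genes. CRYAB and SERPINH1 are not on it, and their list, given below, had medians of 0.07 and 0.03. Under median-ratio scaling only DNAJA1 and HSPA8 rose with NFE2L1 (3.9% of all genes), and none was called with NFE2L1DC (2.61% of all genes). After GC and length correction 10 rose with NFE2L1, the 7 above with HSPA1A, HSPA1B and HSPH1. With NFE2L1DC 6 then rose. In that setting 10.9% of all genes rose with NFE2L1 and 3.79% with NFE2L1DC. No gene of the list was called in either line against control 3 alone. Without control 3, 10 rose and HSPB1 fell with NFE2L1 (30.1% and 5.69% of all genes), and 12 rose with NFE2L1DC (20.1%).

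Around the members, 3 lists of partner genes were counted the same way, where 7.83% of all genes rose with NFE2L1 and 2.06% with NFE2L1DC. Of 23 other co-chaperones of HSP90 and HSP70, 3 rose (13.0%), with a list median of 0.19 against 0.17: PPID (log2 fold change 0.81), RUVBL1 (0.45) and TTC4 (0.40). RUVBL1, an ATPase of the R2TP complex that works with HSP90, had 179, 176 and 163 TPM in control, 233, 231 and 246 TPM with NFE2L1 and 211, 226 and 249 TPM with NFE2L1DC, and also rose with NFE2L1DC (0.40, adjusted p = 0.0298, limma). Of 14 prefoldin and CCT cofactor genes, PDCL3 and TBCA rose with NFE2L1 (14.3%; 0.60 and 0.37) and none with NFE2L1DC. Of 13 mitochondrial proteases and HSP70 partners, GRPEL1, the exchange factor of HSPA9, rose with NFE2L1 (0.79), and TIMM44, which tethers HSPA9 to the import channel, rose in both lines (0.35 and 0.39), so 15.4% of that list rose with NFE2L1. No gene fell in these 3 lists on the TPM as deposited with all 3 controls, but under median-ratio scaling HTRA2, a protease, did with NFE2L1. After GC and length correction the lists held 23, 13 and 13 genes. Then 4, 3 and 2 rose with NFE2L1 and 4, 0 and 1 with NFE2L1DC (10.9% and 3.79% of all genes). The 4 were FKBP4, PPID, RUVBL1 and SGTA in both lines. Without control 3 the 3 lists had 10, 8 and 6 genes higher with NFE2L1 and 10, 6 and 3 with NFE2L1DC (30.1% and 20.1% of all genes), and against control 3 alone none. Of 5 further genes linked to the heat shock factors (HSF4, HSBP1, CRYAB, SERPINH1 and FKBPL) and of 14 chaperones of the endoplasmic reticulum none was called on the deposited scale with all 3 controls. CRYAB fell with NFE2L1 without control 3 and under median-ratio scaling. Without control 3, 6 of the 14 endoplasmic reticulum chaperones rose with NFE2L1 and 3 fell (30.1% and 5.69% of all genes). With NFE2L1DC 3 of the 14 rose, near the 20.1% of all genes, and 3 fell, against 4.34%. CALR, CRELD2 and SDF2L1 were the 3 that fell in each line. CRELD2 and PDIA6 of the 14 fell with NFE2L1DC after GC and length correction (1.38% of all genes). The list's median with NFE2L1 was 0.10 with all 3 controls, against 0.17 over all genes.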

How the data were processed

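Libraries were RNA-seq of total RNA. The authors deposited TPM, which are scaled within a library and keep no depth; the submitters' processing notes name CASAVA and GRCh38, and the sources used here do not give the aligner, quantifier, annotation or strandedness. Samples were grouped by the genotype label, 3 libraries for each of 3 groups.

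From these values, genes with at least 1 TPM in at least 3 of 9 libraries were kept, and log2(TPM + 1) was fitted with limma 3.58.1 (trend, 1 mean per group, all 9 libraries) in R 4.3.3. Tests were 2-sided, with Benjamini-Hochberg adjustment over all 14118 genes in each contrast. A pseudocount of 1 understates changes of low genes. The script was tested on simulated data. SE is the standard error of a log2 fold change from the fit, and folds are ratios of mean TPM. GENCODE 29 (GRCh38) matched 57836 genes and all 72 members and gave coordinates, GC content and length. Promoters came from RefSeq (GRCh38.p14).

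Members and lists were chosen with earlier results of these data known. Genes described singly were a core of 20 regulators and main chaperones, any member called between the overexpressing lines, and up to 15 called members per control comparison by p; others are named by value only. Alternatives covered pseudocount, filter, scaling, trend, groups fitted, replicate block, GC correction and each library left out.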

Additional observations from a re-analysis of the deposited data

How the results depend on the processing

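Counts of members called with NFE2L1 against control (19) stayed within 1.5 times under a pseudocount of 0.1 (17), a mean of at least 5 TPM (20 of 54 members) and a GC and length correction (26). They were 7 with no filter, 9 with median-ratio scaling, 12 without the abundance trend, 10 with only the 2 groups fitted, 1 with control 3 as the only control (added after the data were seen) and 3 to 43 with each library left out. For NFE2L1DC against control (4) they were 9 at a mean of at least 5 TPM, 8 after GC correction, 0 with median-ratio scaling, 0 without the trend, 0 with only the 2 groups, 0 with control 3 as the only control and 0 to 37 with each library left out. Between the lines (0) they were 1 after GC correction and 0 to 1 with each library left out. Where the cause of such a move is not the number of genes or samples fitted, the cause was not tested. Against control, shares over all genes are given above for median-ratio scaling, the GC correction, and the settings without control 3 or with it alone. For the other alternatives they were not counted, so members and all genes cannot be compared there. Libraries sharing a replicate number did not deviate together (correlations from -0.19 to 0.11), so the numbers were not read as pairs; with the replicate block the counts were 9, 2 and 0. For the 27 named genes no called direction reversed: of their alternatives, 125 with NFE2L1 and 47 with NFE2L1DC lost a call and 13 and 32 gained one. The depth behind TPM is unknown, so no counting error can be given, and values near 1 TPM are the least certain.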
